A study of Saccharomyces cerevisiae with 12 samples.

Results

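The response to NaCl was compared between wild type and Spt4T42AS43A (Spt4-AA) yeast cells, gene by gene, as the change upon NaCl in the mutant minus the change upon NaCl in the wild type. Here this value is called the difference in response and is given on the log2 scale, so that 1 is a 2-fold difference. All 12 libraries of the series entered it, and it was tested for 6040 of the 7126 genes counted, those that passed the filter on low counts of edgeR. Both strains are BY4741 (*MATa*, with the deletions *ura3-Δ0*, *met15-Δ0*, *leu2-Δ0* and *his3-Δ1*) with *SPT4-TAP::kanMX4* at the native locus, so that the control carries the TAP tag and the marker as well, and the mutant has T42A and S43A in addition. Cells from log phase in YPD were taken either unstressed or treated with 0.4 M NaCl for 15 min, and each of the 4 groups has 3 biological replicates. Poly(A) RNA was sequenced, and no spike-in is named in the sources used here, so that every level below is a share of the mRNA, and less mRNA of a gene per cell cannot be told apart from more mRNA of the other genes.

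Spt4 forms a complex with Spt5 that travels with RNA polymerase II along the gene and helps it to go on through chromatin. Hog1 is the MAP kinase that high osmolarity activates in yeast, and Thr42 and Ser43 of Spt4 are sites that Hog1 phosphorylates in vitro according to the study. The study also reports that phosphorylation of Spt4 in cells rose upon NaCl. This rise was absent in cells without *HOG1* and in cells with both sites changed to alanine. Upon osmostress yeast cells turn on genes for glycerol, trehalose, glycogen, chaperones and antioxidants, many of them through the activators Msn2 and Msn4 at the stress response element (STRE), and turn down the genes for ribosomes and growth. The genes for ribosome assembly are known for a pair of promoter motifs, PAC and RRPE, which the repressors Dot6, Tod6 and Stb3 recognize. The codons changed in the mutant lie in *SPT4* (YGR063C, chromosome VII, 617516 to 617824), printed here as the R64 reference sequence of chrVII:617681-617716, minus strand, with codons 42 and 43 in capitals (ACG for threonine and TCG for serine, T42A and S43A in the mutant).
SPT4: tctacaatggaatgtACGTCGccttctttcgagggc

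The libraries held 12903162 to 21909524 counts on genes (median 15580005). The median standard error of the difference in response was 0.202, which rests on the spread between replicates as well as on the counts. Markers of *MATa* cells were high and those of *MATα* cells were near 0 in each library. The deleted genes *LEU2*, *MET17* and *URA3* had together at most 2 counts in 11 libraries and 139 in replicate 2 of the stressed mutant. *HIS3*, of which the *his3-Δ1* allele removes only a part, had 304 to 1011 counts per library. Replicates 1 and 2 of the stressed mutant carry library numbers apart from the other 10, so that a shared technical difference of these libraries could be told apart from the mutant's response only through replicate 3. *SPT4* itself had 14.6, 17.3 and 12.7 CPM (counts relative to the library total, normalized by the TMM method) in the unstressed wild type, 21.1, 19.8 and 18.2 in stressed wild type cells, 9.98, 7.78 and 11.6 in the unstressed mutant and 17.2, 19.2 and 12.8 in the stressed mutant. Its difference in response was 0.34 (95% confidence interval -0.21 to 0.89, adjusted p = 0.343 by edgeR), with a negative sign under *ENO1* scaling and with a term for library numbers.

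Of the genes tested, 1568 (26%) had a difference in response at an adjusted p below 0.05 by edgeR's quasi-likelihood test, 663 (11%) negative and 905 (15%) positive. These genes are referred to as called. The counts called in each list below are to be read against these shares of all genes tested. The number was 2394 without replicate 3 of the stressed mutant and 1175 without replicate 3 of the unstressed wild type. With a term for the libraries numbered apart it was 866, and it was 550 after scaling to *ENO1*, against which the study's Northern blots were quantified. The median over all genes tested was -0.00732 (-0.198 with library totals alone and -0.309 with *ENO1* scaling), so that a difference in response near 0 has no sign that holds under each scaling.

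To see which responses were smaller or larger in the mutant, salt-induced and salt-repressed genes were chosen on the mean response of both strains (adjusted p below 0.05 and at least 2-fold), a choice that leaves the difference between the strains free. A gene that responds in 1 strain alone can miss the 2-fold limit on the mean, such as *PMP1* (-1.51 in wild type cells and 0.12 in the mutant). Such genes are in neither class and are left out of the counts of induced and repressed genes. Of the 4028 genes in neither class, 341 were called negative and 322 positive. Of 1008 salt-induced genes, 314 (31.2%) had a weaker induction in the Spt4T42AS43A mutant and 22 (2.18%) a stronger one. Another 431 (42.8%) kept their induction, which here means no called difference and a difference shown to lie within 2-fold by an equivalence test (2 one-sided tests, adjusted p below 0.05), beside 55.1% of all genes tested. For the remaining 241 neither test passed. In the lists described further on, kept is used of any gene by this same equivalence, also of genes that respond little in either strain. The median induction was 1.88 in wild type cells and 1.58 in the mutant. Of 1004 salt-repressed genes, 561 (55.9%) had a weaker repression, 8 (0.797%) a stronger one, 286 (28.5%) kept theirs and 149 were undecided. The median repression was -2.22 in wild type cells and -1.46 in the mutant. The repressed side thus held more of the weaker responses, and 338 repressed genes against 98 induced genes were weaker by at least 2-fold. Without replicate 3 of the stressed mutant, 65 induced and 40 repressed genes had a stronger response, and with the term for library numbers 197 induced genes had a weaker one.

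**Figure D1:**
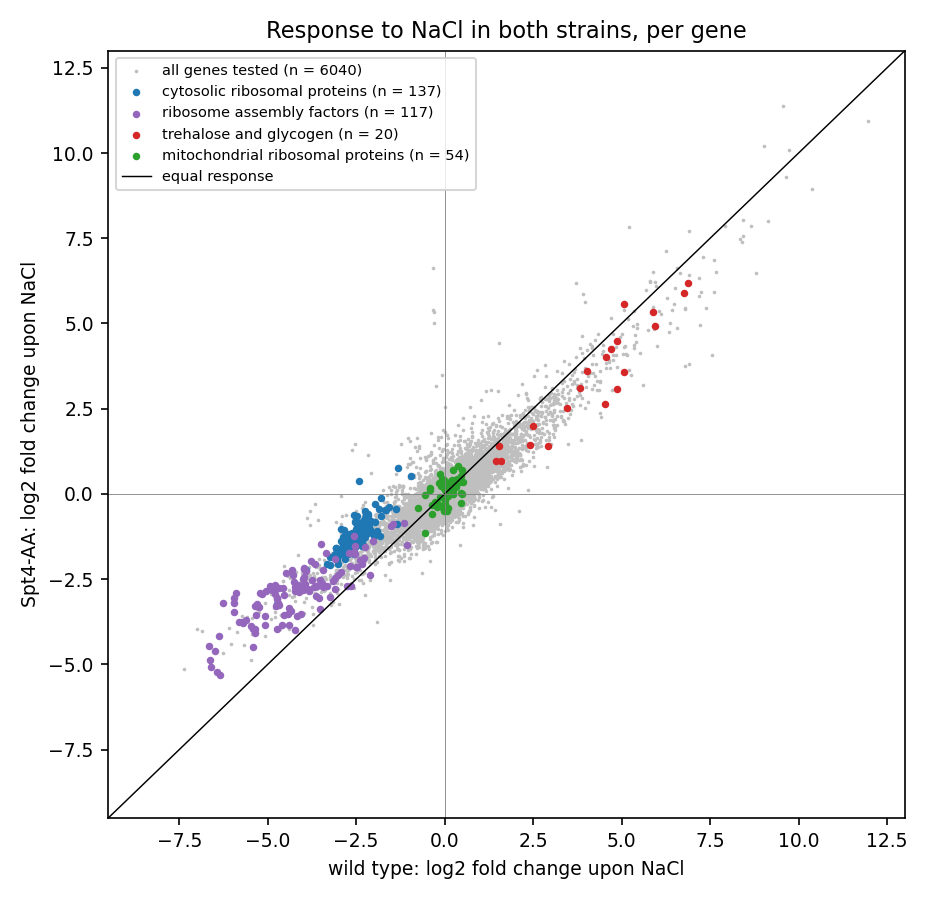
Log2 fold change upon NaCl in the wild type (x axis) and in the Spt4-AA mutant (y axis) for each of the 6040 genes tested, with ribosomal protein genes, ribosome assembly factors, trehalose and glycogen genes and mitochondrial ribosomal protein genes in colour and the line of equal response. Nearly all genes of the cytosolic ribosome and its assembly lie above the line, most trehalose and glycogen genes lie below it, and the mitochondrial ribosomal proteins lie near the origin.

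The larger the response, the more often a weaker one was called in the mutant. Among repressed genes, a weaker response was called in 42.7% of the 600 genes with a mean log2 response of 1 to 2 in size, in 73.2% of the 339 genes with 2 to 4 and in 87.7% of the 65 genes over 4, with median differences of 0.468, 0.994 and 1.68. Among induced genes the shares were 28.1% of 612, 34.3% of 277 and 39.5% of 119, with median differences of -0.267, -0.419 and -0.687. Stronger responses were called in 13, 3 and 6 of these induced genes. The median responses in the wild type and the mutant were 1.48 and 1.24, 2.92 and 2.42, and 5.52 and 4.94 for induced genes. For repressed genes they were -1.66 and -1.18, -3.06 and -2.24, and -5.44 and -3.78. Whether the loss was in proportion to the response was not tested. As a measure within each library, the span was taken as the median log2 CPM of the induced genes minus that of the repressed genes, so that no scaling factor enters it other than through the choice of genes. It was -2.681, -2.552 and -2.559 in the unstressed wild type and -2.777, -2.672 and -2.67 in the unstressed mutant. Upon NaCl it reached 2.131, 2.186 and 2.08 in wild type cells and 0.9594, 0.8868 and 0.996 in the mutant. The strains lay close to each other without stress and did not overlap upon stress, where the span had changed by 4.729 in wild type cells and by 3.654 in the mutant (77.3% of the wild type change). The genes that respond were chosen partly on the mutant, and chosen on the wild type alone the changes were 4.389 and 3.301.

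The genes for ribosome assembly were among those with the largest weaker responses. Of 117 assembly factors, 93 were called positive and none negative, and in 71 of them the repression was weaker by at least 2-fold. The median response went from -4.14 in the wild type to -2.79 in the mutant. In the small-subunit processome, the particle that folds and cuts the precursor of the small-subunit RNA, 46 of 58 genes were called (median difference 1.23), and among the 60S assembly factors 47 of 59 (median difference 1.42). In 51 genes of each list the stressed mutant libraries all lay above the stressed wild type libraries, as in 25.3% of all genes tested. With the term for library numbers 40 genes were still called in each list, and the medians were 1.246 and 1.434. With *ENO1* scaling 20 and 25 were called. The named genes of this class were *NOG2*, *BRX1* and *NOG1*, which act in the assembly of the large subunit, *NSR1*, a nucleolin of pre-rRNA processing, *URA7*, the major CTP synthase, and the small RNA gene *snR84*. Their promoters are shown for the motifs that most assembly genes share, as 12 bases on each side of the outermost motif in the R64 reference (RefSeq), read 5′ to 3′ along the gene, with PAC (GATGAG, or CTCATC on the other strand) and RRPE (AAAATTTT) in capitals. The windows are chrXIV:723246-723305, minus strand for *NOG2*, chrXV:186852-186894, minus strand for *BRX1*, chrXVI:370823-370887, plus strand for *NOG1*, chrVII:807809-807855, minus strand for *NSR1* and chrII:145862-145910, minus strand for *URA7*, where a pair of PAC copies overlap.
NOG2: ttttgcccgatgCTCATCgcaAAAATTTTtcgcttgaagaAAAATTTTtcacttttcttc
BRX1: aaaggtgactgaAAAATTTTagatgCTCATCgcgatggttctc
NOG1: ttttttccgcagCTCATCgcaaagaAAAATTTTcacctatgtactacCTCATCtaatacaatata
NSR1: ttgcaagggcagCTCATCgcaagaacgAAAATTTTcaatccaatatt
URA7: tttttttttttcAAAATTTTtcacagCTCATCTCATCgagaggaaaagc

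In each of the 5 promoters both motifs stand within a short stretch. Over the whole window from 250 bases before to 50 bases after the start codon, PAC was present in 94.9% of the 60S assembly genes and in 89.7% of the processome genes, beside 20.3% of the 5716 genes tested that have a promoter in the reference. RRPE was present in 79.7% and 75.9% of them, beside 9.25%. Both strands were searched, and a match says only that the letters are there. Within the salt-repressed genes, PAC was found in 47.2% of those with a weaker response and in 37% of those that kept it, and RRPE in 34.4% and 26.4%.

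*NOG2* (YNR053C, chromosome XIV, 721120 to 723112), a GTPase of late 60S assembly, had the largest difference of the named genes. Its level was 180.2, 184.5 and 172.5 CPM in the unstressed wild type and 175, 172 and 172 in the unstressed mutant. Upon NaCl it was 1.91, 2.58 and 2.43 in wild type cells and 17.6, 19.8 and 18.9 in the mutant. The stressed groups lay far apart while the unstressed groups overlapped. The repression was -6.28 in wild type cells and -3.20 in the mutant, with a difference of 3.07 (95% confidence interval 2.75 to 3.40, adjusted p = 3.33e-08 by edgeR). *BRX1* (YOL077C, chromosome XV, 185848 to 186723) fell to 2.34, 2 and 2.62 CPM in stressed wild type cells and to 17.3, 17.9 and 15.9 in the stressed mutant, from 148, 129.7 and 138 and 126, 132.5 and 126 without stress. Again only the stressed groups were apart (difference 2.98, adjusted p = 4.11e-08 by edgeR). *NOG1* had 7.81, 8.96 and 7.79 CPM in the stressed wild type against 56.8, 78 and 54.6 in the stressed mutant (difference 2.91), and *NSR1* 17, 19.6 and 12.5 against 103.5, 157 and 101 (difference 2.85). *URA7* fell from 469, 482 and 455 to 3.75, 4.77 and 3.59 CPM in wild type cells and from 449.5, 498 and 488 to 25.1, 36.2 and 27.6 in the mutant (difference 2.84). In these genes replicate 2 of the stressed mutant was the highest. Each replicate of the stressed mutant was above every stressed wild type library, but this was a condition for naming these genes. The snoRNA gene *snR84* was low throughout, with 8.73, 8.85 and 10.7 CPM in the unstressed wild type, 0.984, 0.644 and 0.73 in stressed wild type cells, 5.43, 7.78 and 7.02 in the unstressed mutant and 3.88, 3.32 and 4.59 in the stressed mutant (difference 2.80, adjusted p = 3.15e-05 by edgeR). Most small RNAs lack a poly(A) tail, so its level in these libraries need not be that of the mature RNA. *PWP2*, a core protein of the processome, was the member of its list with the smallest p, at 7.25, 9.15 and 8.09 CPM in stressed wild type cells and 33.8, 38.7 and 39 in the stressed mutant (difference 2.06).

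**Figure D2:**
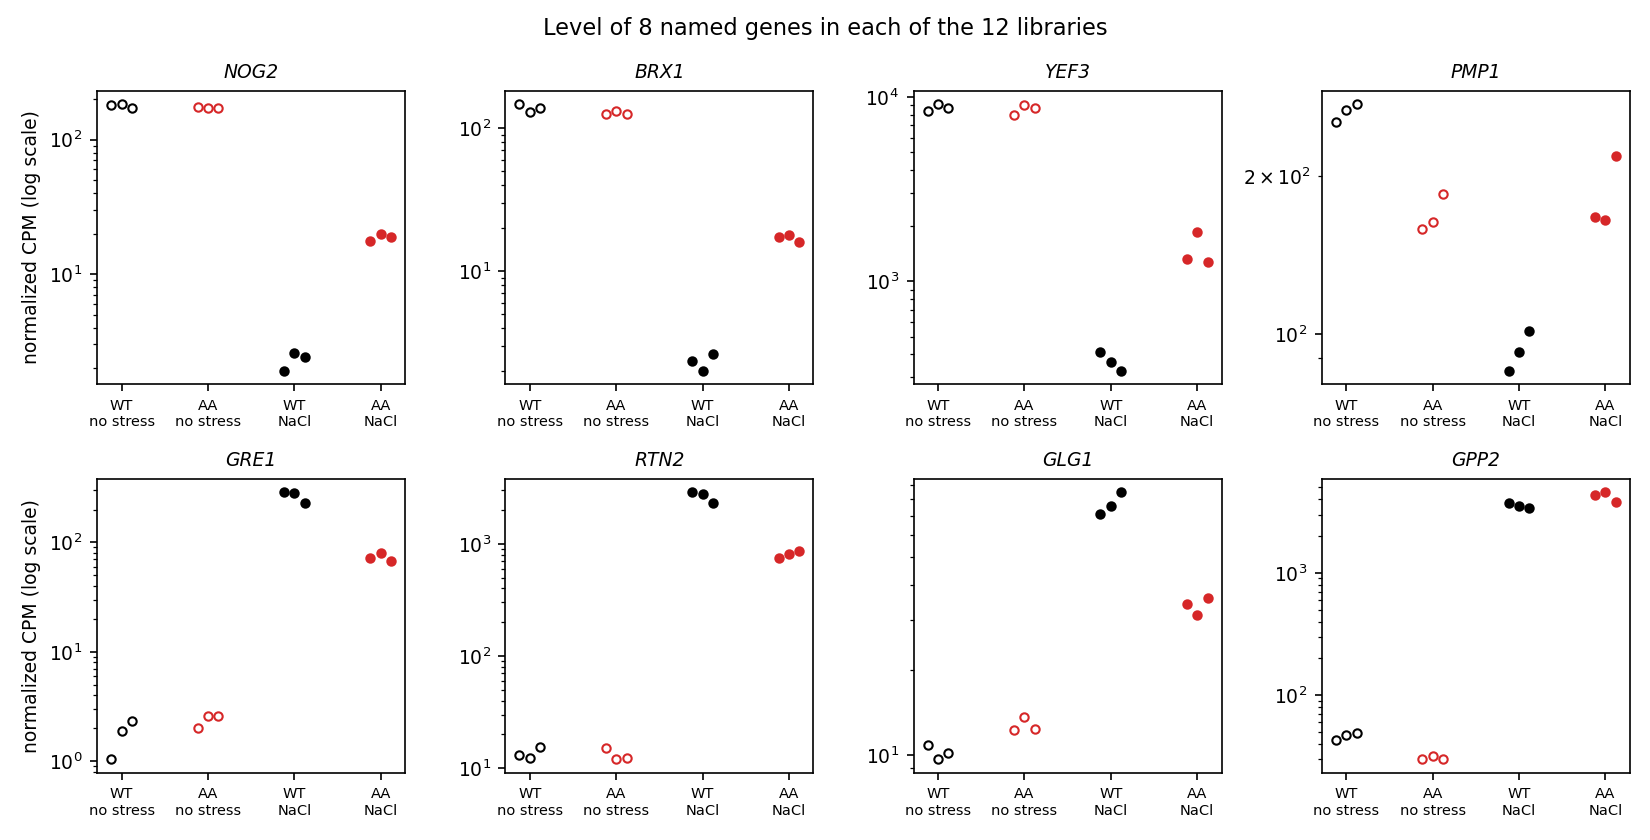
Normalized CPM (log axis) of 8 named genes in each of the 12 libraries, wild type in black and Spt4-AA in red, open points without stress and filled points upon NaCl. *NOG2*, *BRX1* and *YEF3* fell less in the mutant, *GRE1*, *RTN2* and *GLG1* rose less, *PMP1* differed already without stress, and *GPP2* rose more from a lower unstressed level.

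The cytosolic ribosomal protein genes had the largest share of called genes of the 36 lists. Of 137 genes, 134 were called positive and none negative, in 115 of them by at least 2-fold, and the difference was above 0 in all 137. Of all genes tested, 15% were called positive. Their median response was -2.5 in wild type cells and -1.25 in the mutant. The small-subunit list had 55 of 56 genes called (median difference 1.34, quartiles 1.11 and 1.47) and the large-subunit list 79 of 81 (median 1.27, quartiles 1.14 and 1.44). Stressed libraries did not overlap, with the mutant higher, in 55 and 78 of them, beside 25.3% of all genes tested. The size of the difference varied between the stressed mutant libraries. The median level of the large-subunit genes against the unstressed wild type was -2.33, -2.57 and -2.69 in the stressed wild type, -1.24 and -1.05 in replicates 1 and 2 of the stressed mutant, and -1.9 in replicate 3. All mutant libraries were above all wild type libraries, but replicate 3 was the nearest to them. With the term for library numbers, which rests on replicate 3, the medians were 0.7175 and 0.7281, and 41 of 56 and 58 of 81 genes were called. The assembly factors had no such split, at -2.84, -2.85 and -2.93 in the stressed mutant for the 60S list and -4.51, -4.41 and -4.02 in the stressed wild type. Whether the library numbers take part in the level of the ribosomal protein genes was not tested beyond this term. Most of these genes exist as a pair of near-identical copies, so that the share of each copy is uncertain. *RPS26B* had 34.7, 28.9 and 34 CPM in stressed wild type cells and 84, 99.7 and 74 in the stressed mutant (difference 1.51), and *RPL22B* 16.6, 16.1 and 18.5 and 61.1, 60.6 and 40 (difference 1.95). PAC was present in 12.5% and 9.88% of the promoters of these lists, below the 20.3% of all genes tested. Together with the assembly factors they made up 223 of the 561 genes with a weaker repression (39.8%).

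**Figure D3:**
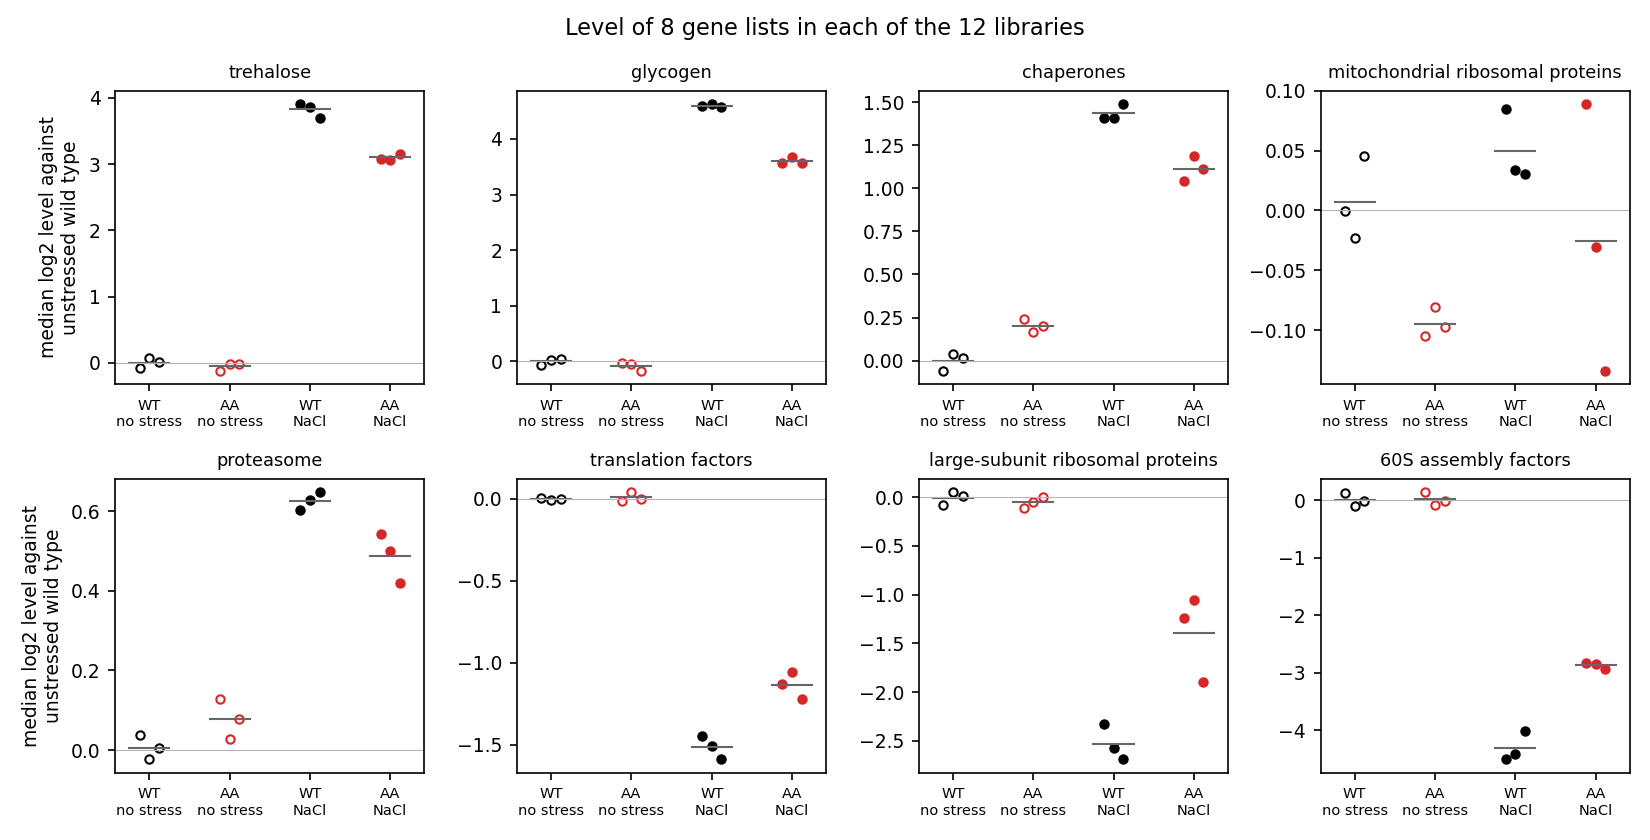
Median log2 level of the genes of 8 lists in each library, relative to the mean of the unstressed wild type, wild type in black and Spt4-AA in red, with the group mean as a line. For the large-subunit ribosomal proteins the third replicate of the stressed mutant (-1.9) lies between the other 2 (-1.24 and -1.05) and the stressed wild type, while the 60S assembly factors are tight in the stressed mutant.

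Other genes of growth also had a weaker repression in the mutant, to a smaller extent. Of 20 genes for RNA polymerases I and III, which make rRNA and tRNA, 12 were called positive and none negative (medians -2.78 in wild type cells and -2.15 in the mutant). *RPA190*, the largest subunit of RNA polymerase I, had 9.04, 8.12 and 7.85 CPM in stressed wild type cells and 24.6, 29.9 and 26.8 in the stressed mutant (difference 1.78, adjusted p = 1.49e-06 by edgeR). Of 12 subunits of RNA polymerase II, 5 were called positive and 1 negative (*RPO21*, the largest subunit, at -0.46, which was not called in 3 of the fits that left out a library), and the median of 0.316 turned to -0.01592 with *ENO1* scaling. Its 5 positive members, among them *RPB8* (difference 1.01), are the subunits shared with the other RNA polymerases. Among 33 translation factors 12 were called positive (7 in 4 of the 12 fits that left out a library) and 1 negative (2 without replicate 3 of the stressed mutant), with a median difference of 0.339. *YEF3*, translation elongation factor 3, fell from 8337, 9162 and 8733 to 411, 362.5 and 325.5 CPM in wild type cells and from 8018, 9069 and 8694 to 1314, 1836 and 1272 in the mutant (difference 2.03). Of 18 aminoacyl-tRNA synthetases, which load tRNAs with amino acids, 5 were called positive and 13 were kept. Their median of 0.184 turned to -0.006988 with library totals and to -0.1182 with *ENO1* scaling. *MES1*, the methionyl-tRNA synthetase, had 80.8, 77.2 and 80.9 CPM in stressed wild type cells and 128, 125 and 123 in the stressed mutant (difference 0.66).

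Nucleotide, ergosterol and cell wall genes were called in the positive direction. Of 29 genes of purine and pyrimidine synthesis, 17 were called positive and none negative (medians -1.38 and -0.79), of 24 ergosterol genes 12 and none (-0.552 and -0.263), and of 24 cell wall genes 13 and none (-1.22 and -0.301), beside 15% of all genes tested. Of these, 15, 4 and 8 genes were salt-repressed, and 14, 3 and 6 had a weaker repression. With library totals 3 genes of nucleotide synthesis were called negative, 7 ergosterol genes were called positive, and the medians of the 3 lists moved from 0.557, 0.363 and 0.584 to 0.3608, 0.1692 and 0.3771. With *ENO1* scaling 7, 3 and 7 genes were called positive and 1 of nucleotide synthesis negative, with medians of 0.2419, 0.05414 and 0.2508, and with the term for library numbers 11, 5 and 7 were called positive. *ERG3*, a sterol desaturase, had 168, 158 and 144.5 CPM in stressed wild type cells and 515, 623 and 441 in the stressed mutant (difference 1.79). *SCW10*, a cell wall glucanase, fell from 1159, 1285 and 1208 to 236, 218.5 and 193 CPM in wild type cells, and in the mutant from 1188, 1270 and 1322 to 832, 1102 and 748 (difference 2.00). Replicate 2 of the stressed mutant came near to the unstressed level. *RKI1*, the ribose-5-phosphate isomerase, fell to 3.44, 2.71 and 3.23 CPM in wild type cells and to 9.86, 11.2 and 10.1 in the mutant (difference 1.81). Of the 11 genes of its pathway, the pentose phosphate pathway, 2 were called positive (5 without replicate 3 of the stressed mutant, 1 in 6 of the other fits that left out a library) and 2 negative. The median of that list turned from 0.259 to -0.08032 with *ENO1* scaling and to -0.0003436 with the term for library numbers. Among 12 cyclin genes 6 were called positive and 1, the inhibitor gene *SIC1*, negative (0 without replicate 3 of the unstressed wild type, 2 without replicate 3 of the stressed mutant). *PCL2*, a cyclin of the kinase Pho85, had 19.8, 18.4 and 16.4 CPM in stressed wild type cells and 39.7, 41.2 and 43.4 in the stressed mutant, above the 31.3, 28.7 and 28.9 of the unstressed mutant, so that the direction of its response differed between the strains (-0.86 and 0.48). Of 19 genes for mating of a cells 9 were called positive and none negative. *AGA1*, the anchor of the a-agglutinin, was lower in the mutant already without stress (228, 222.5 and 228 against 325, 309 and 294 CPM, -0.45 on the log2 scale, adjusted p = 0.0164 by edgeR), and fell to 99.3, 100.3 and 86 CPM in wild type cells and 199, 191 and 188 in the mutant.

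On the induced side, reserve carbohydrate genes had a weaker response. All 7 trehalose genes were induced, and 6 of them were called negative (medians 3.83 in wild type cells and 3.12 in the mutant). The stressed mutant libraries were all below the stressed wild type libraries in each of the 7, as in 25.3% of all genes tested. *ATH1*, the acid trehalase, rose from 19, 21.2 and 20.3 to 202, 228 and 237 CPM in wild type cells and from 20.8, 19.8 and 20.5 to 116, 98.3 and 134 in the mutant (difference -0.95, 95% confidence interval -1.29 to -0.61, adjusted p = 0.000828 by edgeR). Of the enzymes that make trehalose, the difference was -0.9979 for the phosphatase *TPS2* and -0.40 for the synthase *TPS1* (adjusted p = 0.19 by edgeR; this gene was called with library totals and with *ENO1* scaling). Of 13 glycogen genes, all induced, 7 were called negative and 1 positive (medians 4.57 and 3.57). *GIP2*, a regulatory subunit of the phosphatase Glc7, rose to 42.8, 45.5 and 55.1 CPM in wild type cells and to 12.3, 13.1 and 14.3 in the mutant (difference -1.91). *GLG1*, a glycogenin that primes glycogen, rose from 10.9, 9.68 and 10.2 to 71.1, 75.9 and 84.6 CPM in wild type cells and from 12.3, 13.7 and 12.4 to 34.3, 31.3 and 36 in the mutant (difference -1.51, adjusted p = 1.21e-05 by edgeR). The positive member was *GSY1*, a glycogen synthase, at 0.51 (adjusted p = 0.0235 by edgeR), but the call was lost by edgeR when replicate 2 of unstressed wild type cells (adjusted p = 0.0654), or replicate 1 (0.073) or 3 (0.051) of unstressed Spt4-AA cells, was left out. *TPS1*, *TPS2*, *GSY1* and the other genes below that no rule selects were picked after their values were seen, namely *SIP18*, *HSP12*, *HOR7*, *TKL2*, *GPD1*, *TOD6*, *ADH1*, *RPO21*, *SIC1* and *PHO84*.

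The named genes with the largest weaker induction were *GRE1*, *MGA1*, *UIP4*, *GIP2*, *RTN2* and *GND2*. *GRE1* (YPL223C, chromosome XVI, 128632 to 129138), a hydrophilin of the osmotic stress response, rose from 1.03, 1.86 and 2.33 to 288, 283 and 232 CPM in wild type cells and from 2.02, 2.57 and 2.6 to 71.7, 80.3 and 67.7 in the mutant. The induction was 7.23 and 4.94, and the difference -2.28 (95% confidence interval -2.89 to -1.67, adjusted p = 7.43e-05 by edgeR). *RTN2* (YDL204W, chromosome IV, 94605 to 95786), a reticulon of the endoplasmic reticulum, rose from 13.1, 12.2 and 15.5 to 2876, 2779 and 2307 CPM in wild type cells and from 15, 12 and 12.2 to 748, 807 and 854 in the mutant (difference -1.68, adjusted p = 4.21e-05 by edgeR). For both genes the unstressed groups overlapped and the stressed groups were more than 2-fold apart. *GND2*, the minor 6-phosphogluconate dehydrogenase, reached 399.9, 412 and 356 CPM in wild type cells and 97.3, 128 and 118 in the mutant (difference -1.66). *MGA1*, which resembles heat shock factors, reached 38.5, 31.2 and 32.8 CPM and 8.86, 7.65 and 12.7 (difference -2.26), and *UIP4*, a protein of the nuclear envelope, 39.2, 39.4 and 45.8 and 11.6, 9.47 and 10.3 (difference -2.15). *GND2*, like *TKL2* (difference -1.44), is the minor isoenzyme of its step in the pentose phosphate pathway, and these were the 2 negative genes of that list. The promoters of *RTN2*, *GND2* and of *STL1*, the glycerol and proton symporter, are shown as examples of induced genes, with STRE (AGGGG, or CCCCT on the other strand) and CRE (TGACGT) in capitals, as chrIV:94408-94461, plus strand, chrVII:1004448-1004476, plus strand and chrIV:1507818-1507846, plus strand in the same reference.
RTN2: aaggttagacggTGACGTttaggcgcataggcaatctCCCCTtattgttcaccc
GND2: aggttatcttcaCCCCTattttcatttta
STL1: cttcaattttgtCCCCTtcaacgctgctt

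STRE was present in 45.3% of the promoters of salt-induced genes, beside 21.8% of all genes tested. It was found in 54.7% of the induced genes with a weaker response, in 42.5% of those that kept it and in 4 of the 18 with a stronger one (22.2%). CRE was present in 6.75%, 9.67% and 5.56% of them, beside 7.56% of all. *GRE1*, *GIP2* and *GLG1* had neither motif in the window, so that these letters were not common to all of the named genes.

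Chaperones and small stress proteins were less uniform. Of 20 chaperone genes 10 were called negative and none positive, and the other 10 were kept (medians 1.46 and 0.792). *HSP78*, the mitochondrial disaggregase, rose from 24.1, 23.2 and 21.4 to 185.5, 187 and 216 CPM in wild type cells and from 27.2, 22.6 and 29.1 to 98.5, 102 and 102.5 in the mutant (difference -1.16). The 12 small stress proteins were all induced (medians 7.07 and 5.54, median difference -0.105). The stressed mutant libraries lay below those of the wild type in 7 of them and above in 0, each beside 25.3% of all genes tested. The differences in response went both ways, with 4 called negative and 2 positive, and a range of -2.28 to 1.81. The negative end was *GRE1* and *SIP18* (-1.94), a further hydrophilin. The positive genes were *HSP12* and *HOR7*. *HSP12*, which codes for a small membrane-binding protein, had 5.4, 6.32 and 7.04 CPM in the unstressed wild type and 1.71, 2.1 and 0.954 in the unstressed mutant, and 5259, 4527 and 4470 and 4943, 4694 and 3261 upon NaCl. It was lower in the unstressed mutant (-1.96 on the log2 scale, adjusted p = 0.00161 by edgeR) and not significantly different under stress (-0.14), so that its larger response (1.81) came with a lower start. *HOR7* was lower in the unstressed mutant as well (-1.14) and higher upon NaCl (0.51), with stressed mutant libraries that were spread (1502, 1168 and 752 CPM) and a difference in response of 1.64. Of 24 antioxidant genes 7 were called negative and 1 positive (4 without replicate 3 of the stressed mutant, 0 in 10 of the other fits that left out a library), and 15 were kept. The called genes were 33.3% of the list, beside 26% of all genes tested. *TSA2*, a peroxiredoxin, rose to 168, 164 and 127 CPM in wild type cells and to 63, 69.7 and 57.5 in the mutant (difference -1.23). Of 12 genes for aldehyde and ketone enzymes 3 were called negative and 1 positive (3 without replicate 3 of the stressed mutant), 33.3% of the list beside 26% of all genes tested. With library totals 7 were called negative and 0 positive, with *ENO1* scaling 5 and 0, and the median of -0.312 moved to -0.5127 and -0.629. *ALD2*, an aldehyde dehydrogenase next to *ALD3* and much like it in sequence, had 1611, 1629 and 1339 CPM in stressed wild type cells and 741.5, 762 and 842 in the stressed mutant (difference -0.93).

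Regulators of the stress response were also among the weaker responses. Of 13 stress transcription factors 4 were called negative (8 without replicate 3 of the stressed mutant) and none positive, and in 12 of the 13 the stressed mutant libraries lay below those of the wild type, as in 25.3% of all genes tested. *XBP1*, a repressor induced by stress, had 214, 205.5 and 185 CPM in stressed wild type cells and 57.5, 66.5 and 72.2 in the stressed mutant (difference -1.07). Its level in the mutant minus that in the wild type was -0.56 without stress (adjusted p = 0.265 by edgeR) and -1.62 upon NaCl. Of 14 genes of the Ras and protein kinase A pathway 5 were called negative (3 when replicate 2 of stressed wild type cells or replicate 1 of unstressed Spt4-AA cells was left out) and 1 positive (0 without replicate 2 of the unstressed mutant). *RAS2*, a GTPase of that pathway, reached 225, 233 and 271 CPM and 164, 147 and 160.3 (difference -0.64). Of 37 autophagy genes 13 were called negative (8 without replicate 3 of the unstressed wild type) and 2 positive (3 without replicate 3 of the stressed mutant, 1 in 8 of the other fits that left out a library). *ATG19*, a cargo receptor of the vacuole, had 223, 203.5 and 193 CPM and 109.7, 108 and 119 upon stress (difference -0.83). Of 9 eisosome genes 4 were called negative and none positive. *FMP45*, a membrane protein of these domains, rose from 3.03, 3.88 and 3.12 to 1140, 1144 and 1151 CPM in wild type cells and from 4.87, 4.28 and 4.42 to 752, 845 and 678 in the mutant (difference -1.02).

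Genes for the osmolyte glycerol were called in either direction. Of 10 genes 2 were called negative (1 without replicate 3 of the unstressed wild type), 1 positive (2 without replicate 3 of the stressed mutant) and 7 were kept, so that 30% were called beside 26% of all genes tested. Of the 7 genes of the list that were salt-induced, 2 had a weaker response, 1 a stronger one and 4 kept theirs. The median response of the list was 2.61 in wild type cells and 2.09 in the mutant, while the median of the differences taken gene by gene was 0.0327. This median difference turned to -0.1752 with library totals, -0.3022 with *ENO1* scaling and -0.1249 with the term for library numbers. *GPP2* (YER062C, chromosome V, 279930 to 280682), a glycerol-3-phosphatase, had the largest positive difference of the list. It rose from 43, 47.3 and 48.9 to 3761, 3541 and 3421 CPM in wild type cells and from 29.8, 31.7 and 29.7 to 4324, 4561 and 3768 in the mutant (difference 0.85, adjusted p = 0.00257 by edgeR, and 0.0646 with *ENO1* scaling). The mutant was lower without stress (-0.61, adjusted p = 0.0323 by edgeR) and not significantly different with it (0.24). *GPD1*, the glycerol-3-phosphate dehydrogenase of the step before, had a difference of 0.40 (adjusted p = 0.147, and 0.0333 without replicate 3 of the stressed mutant, both by edgeR). *GCY1*, a glycerol dehydrogenase, rose from 18.9, 20.7 and 20.4 to 259, 238 and 210.2 CPM in wild type cells and from 16.2, 19.3 and 21 to 106.5, 109.7 and 93.3 in the mutant (difference -1.10). *STL1* rose from 0.592, 0.621 and 0.489 to 2340, 2454 and 2048 CPM in wild type cells and from 1.01, 1.09 and 1.13 to 2087, 2139 and 2107 in the mutant. Its stressed groups overlapped, and the weaker induction (11.95 against 10.93, difference -1.01, adjusted p = 0.0185 by edgeR) came with very low unstressed levels, at which the strains differed by 0.90 (adjusted p = 0.31 by edgeR). Without replicate 3 of the unstressed wild type *STL1* was not called (adjusted p = 0.0671 by edgeR).

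The other genes of the study's Northern blots were compared in the same way. *ALD3*, an aldehyde dehydrogenase, rose from 13.8, 15.7 and 15.5 to 5192, 5200 and 4367 CPM in wild type cells and from 15.2, 13.3 and 15.6 to 2621, 2655 and 2549 in the mutant (difference -0.88, adjusted p = 0.0028 by edgeR). *CTT1*, the cytosolic catalase, rose to 5604, 5119 and 4011 CPM in wild type cells and to 2954, 3373 and 2831 in the mutant (difference -0.85, adjusted p = 0.0128 by edgeR). For both the stressed groups were apart. *GRE2*, a carbonyl reductase, kept its response (difference 0.29, 95% confidence interval -0.08 to 0.67, adjusted p = 0.221 by edgeR), and its sign turned with *ENO1* scaling. The difference of *GRE2* was called positive in 1 of the 12 fits that left out a library (adjusted p = 0.034 by edgeR). In the study's blots, which were quantified against *ENO1*, lower *GRE2* expression is reported for the mutant. *ENO1*, an enolase, had 4720, 4216 and 3902 CPM in stressed wild type cells and 5402, 7109 and 4123 in the stressed mutant. Replicate 2 of the stressed mutant was the highest and replicate 3 lay within the wild type range (difference 0.37, confidence interval -0.17 to 0.90, -0.06134 with the term for library numbers). The difference of *ENO1* was called positive in 1 of the 12 fits that left out a library (adjusted p = 0.0308 by edgeR).

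In the HOG pathway itself, 4 of 23 genes were called negative and 4 positive (1 when replicate 1 of unstressed wild type cells or replicate 2 of unstressed Spt4-AA cells was left out). The called genes were 34.8% of the list, beside 26% of all genes tested. *MSB2*, a mucin that senses osmolarity, fell from 379, 432 and 399 to 206, 188 and 167 CPM in wild type cells and had 433.5, 492 and 473 and 435, 532 and 434 in the mutant, a response of -1.11 against 0.00336 (difference 1.11). Of 15 genes for cation transport 4 were called positive (2 in 6 of the 12 fits that left out a library) and 2 negative (1 in 8 of the fits that left out a library), and 9 were kept. The positive end of this list was a pair of very short genes, *PMP1* and *PMP2*, which code for proteolipids that regulate the plasma membrane proton pump. *PMP1* had 254, 268 and 275 CPM in the unstressed wild type and 85.1, 92.5 and 101 in the stressed one, and 159, 164 and 185 and 167, 165 and 219 in the mutant. It was lower in the mutant without stress (-0.65, adjusted p = 0.0127 by edgeR) and higher with it (0.98), so that its response was -1.51 in wild type cells and 0.12 in the mutant.

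Mitochondrial translation and histones had few differences, and the proteasome genes were called about as often as all genes. Of 54 mitochondrial ribosomal protein genes 1 was called negative and none positive, and 47 were kept, beside 55.1% of all genes tested (medians 0.0679 and 0.0601). The negative gene, *MRPL17*, was near the threshold (difference -0.46, adjusted p = 0.0488, and above the threshold in 9 of the 12 fits that left out a library, both by edgeR). Without replicate 3 of the stressed mutant 10 genes of the list were called positive. All 35 proteasome genes were higher upon NaCl in the wild type (0.119 to 1.26), and 27 of them were kept, while 8 (22.9%, beside 26% of all genes tested) were called and all of them negative, as were 11% of all genes tested (2 without replicate 1 of the unstressed mutant, 1 with *ENO1* scaling and 4 with the term for library numbers). The difference was below 0 in 33 of the 35. The list was drawn by symbol and holds *RPN4*, which is the transcription factor of the proteasome genes and not a subunit. *RPN4* rose from 63.8, 59.5 and 62.1 to 115, 114 and 114 CPM in wild type cells, and in the mutant had 66.2, 67.2 and 69.1 and 77.1, 73.2 and 77.8 (difference -0.72, adjusted p = 0.000307 by edgeR). Its binding motif PACE (GGTGGCAA) was present in 77.1% of the promoters of the list, beside 1.75% of all. Of 35 genes of the respiratory chain 24 were kept, 7 were called negative (4 in 3 of the 12 fits that left out a library) and 3 positive (5 without replicate 3 of the stressed mutant, 2 in 6 of the other fits). The called genes were 28.6% of the list, beside 26% of all genes tested. *NDI1*, the internal NADH dehydrogenase, rose from 54.8, 60.6 and 57.1 to 355, 343 and 349.9 CPM in wild type cells and to 130.2, 144.5 and 169 in the mutant (difference -1.15). Of 10 histone genes 9 were kept and *HHT1*, a histone H3 gene, was called positive (0.62), with 5 called without replicate 3 of the stressed mutant and none without replicate 1 of either mutant group.

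For glycolysis and hexose uptake the number of calls turned on single libraries. Of 15 glycolytic and fermentation genes 2 were called positive, *ENO2* and the alcohol dehydrogenase gene *ADH1*, but 14 had a difference above 0, with a median of 0.555. Without replicate 3 of the stressed mutant 12 were called, and none in 8 of the other fits that left out a library. With the term for library numbers none was called by edgeR and the median was 0.1755. *ENO2*, the major enolase, had 10100, 8858 and 8274 CPM in stressed wild type cells and 18250, 24970 and 12760 in the stressed mutant, where the replicates were nearly 2-fold apart (difference 0.94, adjusted p = 0.0328 by edgeR). Of 10 genes for hexose transport and kinases 3 were called positive (5 without replicate 3 of the stressed mutant, 1 in 5 of the other fits that left out a library) and 1 negative, and the median of 0.303 turned to -0.03096 with *ENO1* scaling. The median difference of this list was -0.308 between the unstressed strains and -0.0809 between the stressed strains. Upon NaCl 3 of the genes were higher and 5 lower in the mutant without overlap of the libraries. *HXT5*, a hexose transporter of slow growth and stress, rose to 1698, 1776 and 1575 CPM in wild type cells and to 650.3, 685 and 706 in the mutant (difference -0.84). Its level in the mutant minus that in the wild type was -0.47 without stress (adjusted p = 0.176 by edgeR) and -1.31 upon NaCl.

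**Figure D4:**
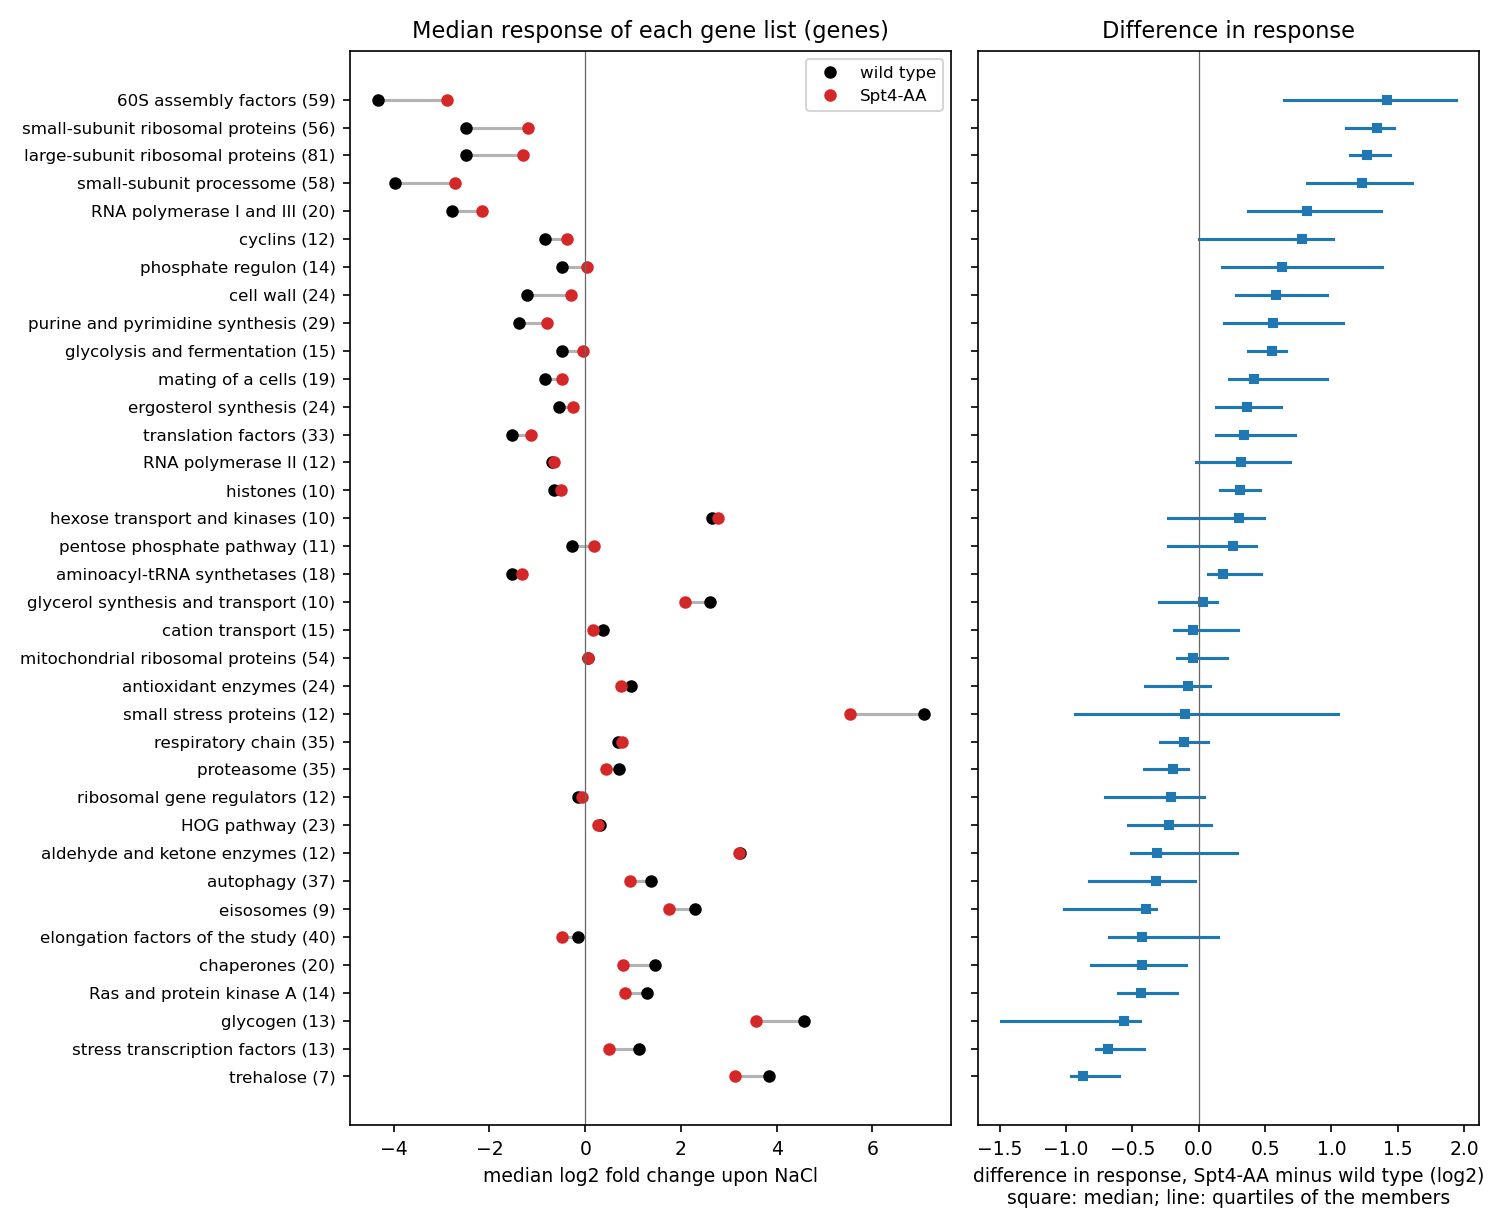
Left, median log2 fold change upon NaCl of the genes of each of 36 lists in the wild type (black) and the Spt4-AA mutant (red), with the number of genes tested in brackets. Right, the median difference in response (square) and its quartiles over the genes of the list (line). Ribosome lists have the largest positive medians (1.23 to 1.42), trehalose has the most negative one (-0.874), and mitochondrial ribosomal proteins lie near 0 (-0.046).

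Several of the smaller counts above depended on the scaling or on the library numbers by more than 1.5 times. With *ENO1* scaling 1 autophagy gene, 1 gene of the respiratory chain, 1 elongation factor, 1 regulator of ribosomal genes, 1 HOG pathway gene and 2 stress transcription factors were called negative and none of the Ras and protein kinase A list. On the positive side 6 genes of RNA polymerases I and III, 1 of RNA polymerase II, 7 translation factors, 1 aminoacyl-tRNA synthetase, 5 mating genes, 1 cyclin, 4 phosphate genes, 1 HOG pathway gene, 2 cation transport genes and 5 glycolytic genes were called, and none of the glycerol and hexose lists. With the term for library numbers 5 autophagy genes, 2 HOG pathway genes, 2 stress transcription factors, 2 of the Ras and protein kinase A list and 1 regulator of ribosomal genes were called negative, and 3 subunits of RNA polymerase II, 4 translation factors, 1 aminoacyl-tRNA synthetase, 2 HOG pathway genes and 4 phosphate genes positive. With library totals 3 elongation factors and 3 hexose genes were called negative, and 1 HOG pathway gene, 3 subunits of RNA polymerase II, 5 phosphate genes and 6 glycolytic genes positive. With DESeq2 7 stress transcription factors were called negative and 6 glycolytic genes positive. The positive calls in the glycogen and antioxidant lists were absent with library totals, *ENO1* scaling and the term for library numbers, where edgeR called 0 genes of either list positive.

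A stronger response in the mutant was rare. Among the named induced genes with a stronger response were *YOL085W-A*, *NFG1*, *YPR146C*, *GPP2* and *FSH1*. *NFG1* (YLR042C, chromosome XII, 229966 to 230451), a negative regulator of filamentous growth, had 77.9, 82.3 and 77.6 CPM in stressed wild type cells and 317, 267 and 183 in the stressed mutant, from 33.9, 24.9 and 24.4 and 34.9, 28.6 and 31.6 without stress (difference 1.49, 95% confidence interval 0.96 to 2.02, adjusted p = 0.00072 by edgeR). The stressed groups did not overlap, which the rule for naming requires, and replicate 3 of the mutant was the lowest of its group. *FSH1*, a serine hydrolase, had 239, 221 and 206 CPM and 519, 545 and 407 (difference 0.73). It was not called with the term for library numbers (0.4588, adjusted p = 0.0847 by edgeR). *YOL085W-A* was low, at 2.58, 2.32 and 2.25 and 6.26, 9.61 and 5.32 CPM upon stress (difference 1.65), and so was *YPR146C*, at 8.11, 9.79 and 8.76 and 15.1, 13 and 10.8 (difference 1.26). *YOL085W-A* had 2.22, 1.71 and 1.59 CPM in the unstressed wild type and 1.26, 2.18 and 1.73 in the unstressed mutant. Its response was 0.385 in wild type cells (adjusted p = 0.24 by edgeR) and 2.035 in the mutant. For *YPR146C* the responses were 0.433 and 1.694, so that both genes were below 2-fold in the wild type. Neither gene has a position in the R64 reference used here. *YPR146C* had 6.43, 6.16 and 7.16 CPM in the unstressed wild type and 4.17, 3.66 and 4.16 in the unstressed mutant. Its level in the mutant minus that in the wild type was -0.72 without stress (adjusted p = 0.101 by edgeR) and 0.54 upon NaCl.

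Of the 8 repressed genes with a stronger response, *SPT5*, *ISW1*, *FHL1* and *ECM22* act in transcription. *SPT5*, the partner of Spt4, had 99.8, 71.3 and 70.8 CPM in the unstressed wild type, 50.2, 45.2 and 69.9 in stressed wild type cells, 130.4, 77.5 and 88.2 in the unstressed mutant and 30.6, 24.6 and 42.8 in the stressed mutant. Its difference was -1.05 (95% confidence interval -1.75 to -0.34, adjusted p = 0.0312 by edgeR), and it was not called in 6 of the 12 fits that left out a library. *CRP1*, which binds cruciform DNA, had 57.7, 62.4 and 77.6 CPM in stressed wild type cells and 48.2, 32 and 44.8 in the stressed mutant (difference -0.95, adjusted p = 0.00342 by edgeR), and *ALR1*, a magnesium transporter, 63.6, 62.3 and 60.2 and 40.6, 41.5 and 52.2 (difference -0.62). For *ISW1* (-0.74), a chromatin remodeler, *FHL1* (-0.70), a regulator of ribosomal protein genes, and *ECM22* (-0.50), a regulator of sterol genes, the call was lost in 7, 9 and 10 of the 12 such fits. Of the 40 elongation factors listed by the study 9 were called negative (4 in 6 of the 12 fits that left out a library, 15 without replicate 3 of the stressed mutant, 2 with the term for library numbers) and none positive (4 without replicate 3 of the stressed mutant), with a median of -0.427. The called genes were 22.5% of the list. Of all genes tested 26% were called, and 11% were called negative. *RPH1*, a histone demethylase, had 72, 72 and 71.1 CPM and 43.6, 44.8 and 49.9 upon stress (difference -0.75). Of 12 regulators of ribosomal genes 4 were called negative (2 in 6 of the 12 fits that left out a library) and 1 positive. *DOT6* rose from 168, 187 and 165 to 288, 273 and 235 CPM in wild type cells and in the mutant had 186, 185 and 190.2 and 157, 192 and 171 (difference -0.72). The positive gene was its paralog *TOD6* (1.26), which fell in both strains (-5.68 and -4.42).

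Genes in neither class differed as well, and *NCA3*, *OST4* and *OST5* went in opposite directions in the strains. *NCA3* (YJL116C, chromosome X, 193860 to 194873) had 21.5, 24.5 and 22.8 CPM in the unstressed wild type and 20.2, 21.3 and 19.7 in the unstressed mutant, and 14.9, 12.1 and 13 and 41.1, 54.6 and 52.5 upon NaCl. It fell in the wild type (-0.78) and rose in the mutant (1.27), with a difference of 2.06 (95% confidence interval 1.67 to 2.44, adjusted p = 4.88e-06 by edgeR). The other genes with the largest positive differences were *PMP2* (2.68) and *OST4* and *OST5* (2.67 and 2.096), small subunits of the oligosaccharyltransferase. Their coding lengths are 132, 111 and 261 bases. *PMP2* had 68.7, 50.9 and 62.7 CPM in the unstressed wild type, 8.97, 9.34 and 24.8 in stressed wild type cells, 23, 34.5 and 23.1 in the unstressed mutant and 55.1, 33.9 and 33.5 in the stressed mutant. Its stressed groups did not overlap, which the rule for naming requires, but were spread. *OST4* had 6.33, 6.31 and 8.64 CPM in stressed wild type cells and 30.7, 33.2 and 12 in the stressed mutant. Without stress the mutant minus the wild type was -0.85 for *OST4* and -0.89 for *OST5* (adjusted p = 0.555 and 0.146 by edgeR), and upon NaCl 1.83 and 1.21. The genes with the largest negative differences were *ESC1* (-1.93), *YCR101C* (-1.69), *YBL086C* (-1.61) and *AIP5* (-1.49). *ESC1*, a protein of the nuclear periphery, had 8.97, 11.1 and 25.5 CPM in stressed wild type cells and 5.04, 3.25 and 6.15 in the stressed mutant, and was not called without replicate 1 of the unstressed mutant (adjusted p = 0.0582 by edgeR). *AIP5* was not called in 6 of the 12 fits that left out a library. *YBL086C* had 33.9, 34.1 and 49.6 and 11.3, 15 and 16.1 CPM upon stress, with no overlap, which the rule for naming requires.

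For the phosphate genes the difference in response came with a difference without stress. Of 14 genes 8 were called positive and none negative, with a median difference of 0.625, a median difference between the unstressed strains of -0.65 and between the stressed strains of 0.0884. *PHO12*, an acid phosphatase that is nearly identical to *PHO11* so that their reads cannot be fully told apart, had 57.6, 68.7 and 65.9 CPM in the unstressed wild type and 22.7, 27.5 and 23.4 in the unstressed mutant. Upon NaCl it had 29.1, 25.3 and 23.8 and 27.6, 31 and 26.3. It fell in the wild type to the level that the mutant had throughout (difference 1.504, unstressed difference -1.39, adjusted p = 1.73e-05 by edgeR). *PHO84*, the high-affinity phosphate transporter, differed by -7.52 on the log2 scale between the unstressed strains and had a difference in response of 2.87, which was not called with the term for library numbers (1.13, adjusted p = 0.36 by edgeR).

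The difference in response also went with the length of the gene. Over the 5722 genes tested that have a coding length in the reference, Spearman's rho between length and difference in response was -0.35, across genes, which are not independent replicates. Among salt-induced genes the median difference went from -0.113 in the shortest quartile (up to 726 bases) to -0.679 in the longest (over 1919.25 bases), and among salt-repressed genes from 1.03 to 0.294. Genes in neither class went from 0.159 to -0.322. Thus short repressed genes had the largest weaker repression and long induced genes the largest weaker induction. Between the unstressed strains rho was 0.133 and between the stressed strains -0.323. The ribosomal protein lists have median coding lengths of 432 and 450 bases, while the processome and 60S assembly lists have 1680 and 1461 bases and a positive median difference of like size. The part of gene length in the difference in response was not tested.

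**Figure D5:**
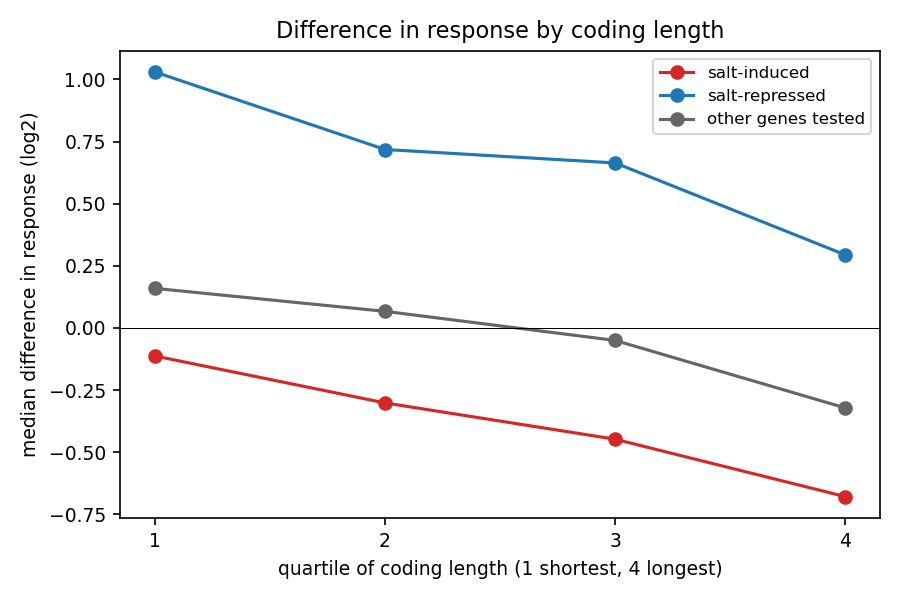
Median difference in response (Spt4-AA minus wild type, log2) in quartiles of coding length for salt-induced, salt-repressed and other genes tested. All 3 lines go down from the shortest to the longest quartile, from 1.03 to 0.294 for repressed genes and from -0.113 to -0.679 for induced genes.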

How the data were processed

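RNA of unstressed and salt-treated wild type and Spt4T42AS43A cells (0.4 M NaCl, 15 min) was sequenced as 50 bp single-end reads, with 3 biological replicates per group. Per the labels, the authors used TopHat2 2.1.0, featureCounts 1.5.1 and the sacCer3 (R64) genome, and they deposited whole-number counts for 7126 genes, not normalized and not pooled. Whether reads were counted by strand is not given in the sources used here, so antisense and overlapping genes are uncertain. The DESeq2 1.14.1 of their notes was not needed for these counts.

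The counts were fitted with edgeR 4.0.16 in R 4.3.3 (TMM, filterByExpr, robust quasi-likelihood, 1 coefficient for each of the 4 groups), and p-values were adjusted over the 6040 genes tested by the Benjamini-Hochberg method. CPM were computed from the library total multiplied by its TMM factor, and a prior count of 2 was added for log2 levels. The deposited count total was 12903162 to 21909524 per library. The precision stated rests on these counts and on the fitted spread between these libraries. All 12 pairs of replicates differed by more than sampling noise (chi-square over degrees of freedom at least 6.31), so no pair behaved as 1 library read again. This check cannot show separate cultures. Each library was taken as 1 replicate because the study states that the replicates are biological. The code was tested on simulated data.

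The gene lists, tests and named genes were chosen with earlier results of these data known. A gene was named if it had at least 10 counts in every library, a called difference and stressed libraries of the strains that did not overlap, taking the 6 largest differences of weaker and stronger induced and repressed genes each and the 4 largest of each sign among other genes. Further named genes are the member of each list with the smallest p and at least 10 counts in every library, *ALD3*, *CTT1*, *STL1*, *GRE2*, *ENO1* and *SPT4*, and those given in the text as picked after their values were seen. A gene that the rule selects is not reported here. Of 36 lists, *ADE5,7* had no entry. Of the genes counted, 6048 matched the R64 annotation of RefSeq.

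Alternatives were DESeq2 1.42.0, RLE size factors, library totals, scaling to *ENO1*, no filter, at least 10 counts in every library, a replicate block, a term for the 2 libraries numbered apart, responsive genes chosen on either strain, an equivalence limit of 0.5 and each library left out in turn. Other assays of the study are not analysed here.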

Additional observations from a re-analysis of the deposited data

Results flagged for a closer look

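The named genes below are listed because their response to NaCl differed between the strains by a test of the difference itself (edgeR's quasi-likelihood test of the interaction, adjusted p below 0.05), with the difference on the log2 scale in brackets. Among salt-induced genes the induction was weaker in the mutant for *GRE1* (-2.28), *MGA1* (-2.26), *UIP4* (-2.15), *GIP2* (-1.91), *RTN2* (-1.68), *GND2* (-1.66), *GLG1* (-1.51), *TSA2* (-1.23), *HSP78* (-1.16), *NDI1* (-1.15), *GCY1* (-1.10), *XBP1* (-1.07), *FMP45* (-1.02), *STL1* (-1.01), *ATH1* (-0.95), *ALD2* (-0.93), *ALD3* (-0.88), *CTT1* (-0.85), *HXT5* (-0.84), *ATG19* (-0.83) and *RAS2* (-0.64). It was stronger for *YOL085W-A* (1.65), *NFG1* (1.49), *YPR146C* (1.26), *GPP2* (0.85) and *FSH1* (0.73). Among salt-repressed genes the repression was weaker for *NOG2* (3.07), *BRX1* (2.98), *NOG1* (2.91), *NSR1* (2.85), *URA7* (2.84), *snR84* (2.80), *PWP2* (2.06), *YEF3* (2.03), *SCW10* (2.00), *RPL22B* (1.95), *RKI1* (1.81), *ERG3* (1.79), *RPA190* (1.78), *RPS26B* (1.51), *RPB8* (1.01) and *MES1* (0.66), and stronger for *SPT5* (-1.05), *CRP1* (-0.95), *ISW1* (-0.74), *FHL1* (-0.70), *ALR1* (-0.62) and *ECM22* (-0.50). Among genes in neither class the difference was positive for *PMP2* (2.68), *OST4* (2.67), *OST5* (2.096), *NCA3* (2.06), *PMP1* (1.63), *PHO12* (1.504), *AGA1* (1.47), *PCL2* (1.35), *MSB2* (1.11), *ENO2* (0.94) and *HHT1* (0.62), and negative for *ESC1* (-1.93), *YCR101C* (-1.69), *YBL086C* (-1.61), *AIP5* (-1.49), *RPH1* (-0.75), *DOT6* (-0.72), *RPN4* (-0.72) and *MRPL17* (-0.46).

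Outside of these comparisons, replicate 2 of the stressed mutant had 139 counts on *LEU2*, *MET17* and *URA3*, which are deleted in both strains, while the other 11 libraries had at most 2.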

How the results depend on the processing

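Counts are given in the order all, negative, positive. With the replicate number as a block, 1631 genes were called (699 and 932), and the main counts and spans stayed within 1.5 times or 1 SD of their values. Of 18 same-number pairs from different groups, 9 had a correlation of deviations over 0.1 (median 0.099, range -0.438 to 0.416). Of 36 pairs with other numbers, 15 did (median -0.065, range -0.516 to 0.522). Whether the numbers pair the samples could not be told from this, as the ranges overlap. Leaving out each library in turn gave 1175 to 2394 genes (442 to 1102 and 733 to 1292), 251 to 359 weaker, 15 to 65 stronger and 370 to 453 kept induced genes, 498 to 591 weaker, 3 to 40 stronger and 259 to 332 kept repressed genes, and spans of 4.711 to 4.771 in the wild type, 3.63 to 3.723 in the mutant and -1.115 to -1.033 between them. With *ENO1* scaling there were 550 genes (218 and 332), 129 weaker, 3 stronger and 73 kept induced genes, 309 weaker, 2 stronger and 657 kept repressed genes, and a mutant span of 4.002, -0.683 from the wild type. *GRE2* (-0.0379) and *SPT4* (-0.01544) turned sign. The term for library numbers gave 866 genes (304 and 562), 197 weaker and 14 stronger induced genes, 1 stronger repressed gene, and turned *ENO1* (-0.06134) and *SPT4* (-0.01732). Stronger repressed genes numbered 13 with DESeq2 and 2 with library totals, where spans were 4.656 and 3.542 in the wild type and the mutant. Spans were 4.783 and 3.715 with no filter and 4.6 and 3.568 with at least 10 counts in every library. Genes chosen on the wild type gave 11 and 2 stronger induced and repressed genes and spans of 4.389 and 3.301, and genes chosen on the mutant 63 and 16, with a mutant span of 3.963, -0.7726 from the wild type. With an equivalence limit of 0.5, 0 induced and 0 repressed genes were kept by edgeR (168 and 94 at an unadjusted p below 0.05). The negative share of calls was 42.3%, and 51.1% with library totals, 39.6% with *ENO1* scaling and 35.1% with the term for library numbers. The cause of these changes was not tested.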
